A study of Arabidopsis thaliana with 24 samples.

Results

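The green parts of Arabidopsis thaliana seedlings labelled ATGE_100 (arrays A, B and C) were compared with those labelled ATGE_96 (arrays A, B and C), called set 100 and set 96 here. Both sets were Col-0 plants grown in continuous light at 20 °C, on a medium labelled 0.5x GM with no sucrose. The members were taken by these array titles, 6 of the 24 arrays of the series, and every probe set other than the control probe sets was included. The labels name no factor that separates the sets. A note on set 96, which set 100 lacks, says that its plants mostly looked like those of set 7 at 7 days. No age is stated here for set 100. For comparison, ATGE_101 and ATGE_97 are seedling green parts on the same medium with 5% sucrose, and ATGE_97 carries the same note. Sets 22, 23 and 24 are whole plants on soil at 23 °C and 65% relative humidity, past the transition and before bolting. Set 7 is the green part of soil seedlings in the same regime.

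Biotin-labelled total RNA had been hybridised to one-colour arrays, and the deposited intensities had the same trimmed mean of 100 on each array. A difference is the mean of log2(intensity + 7) in set 100 less that in set 96, so differences of dim genes are understated. A call is a limma adjusted p under 0.05. Whether the arrays of a set came from separate cultures is not stated in the labels, so p-values measure the spread between these samples, and the number of arrays limits the precision. In whole tissue, fewer cells of a type and less RNA per cell cannot be told apart.

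A young seedling first lives on the oil stored in its cotyledons, which is broken down by lipases, peroxisomal beta-oxidation and the glyoxylate cycle, and then on photosynthesis. Leaf primordia, stomata and later the floral regulators follow as the shoot matures. Seedlings of this species also carry ER bodies, compartments of the endoplasmic reticulum packed with a beta-glucosidase that acts in defence. Plants of any age respond to jasmonate, cold, drought and touch, through gene sets that are well known in this species.

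Set 100 had less transcript of 2 genes of reserve breakdown, of ER body genes and of the stomatal factor SPCH than set 96. SPCH was dim in both sets. Set 100 had more of jasmonate-linked defensins and a thionin, and of genes of the cold and drought response. It also had more of wall-loosening families and of the floral regulator AGL24. Of 15471 probe sets tested, 4718 were called (30.5%), 2745 of them higher (17.7%) and 1973 lower (12.8%) in set 100. At least 2-fold differences were called for 515 higher and 237 lower probe sets, 752 in all (4.86%). Arrays correlated at r = 0.988 to 0.992 within set 100 and at 0.99 within set 96, against 0.946 to 0.95 between the sets.

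Array 100 A stood apart from the other arrays of its set. Its highest intensity was 3240, against 4600 and 4181 on arrays B and C and 4899 to 5075 in set 96. The BioB spike-in control gave 22.6 on array 100 A, 65.6 and 74.8 on arrays B and C, and 79.2 to 84.6 in set 96. Without array 100 A, 2147 probe sets were called higher and 1587 lower. Of the 123 genes named by rule, none changed direction without it. Signs of RNA quality were mixed: for the actin control, the 3' signal was 3.10 to 4.51 times the 5' signal in set 100, and 2.26 to 6.09 times in set 96. The GAPDH control transcript read 656 to 724 in set 100, against 1071 to 1163 in set 96. Array A of ATGE_101 showed the same signs, with BioB at 37.95 against 71.8 and 90.5 on its arrays B and C. Its highest intensity was 3258, against 3960 and 4511. GAPDH also read 788 to 856 in ATGE_101, against 1331 to 1447 in ATGE_97.

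The largest fall of a gene with a symbol was in ICL, isocitrate lyase of the glyoxylate cycle. Its intensity was 1.42, 2.2 and 1.39 in set 100, against 146, 135 and 111 in set 96. The sets did not overlap, and the level in set 100 lay below the intensity of 22.9 used as a filter on low values. The difference was -3.98 ± 0.12 on the log2 scale (SE, adjusted p = 1e-15). SDP1, the lipase that starts the breakdown of storage oil, read 206, 205 and 204 in set 100 against 279.9, 279.3 and 284 in set 96, a fall of 0.44 on the log2 scale (adjusted p = 0.0031). ICL and SDP1 were the only tested genes of the list of the glyoxylate cycle and peroxisomal beta-oxidation. With 5% sucrose the means of SDP1 ran the other way, 156.9 in ATGE_101 and 118.2 in ATGE_97. In set 7 SDP1 averaged 53. The 2 probe sets of the seed storage and late embryo list were near the bottom of the scale, with sums of 1.66 to 2.41 in set 100 and 2.15 to 3.78 in set 96.

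**Figure D1:**
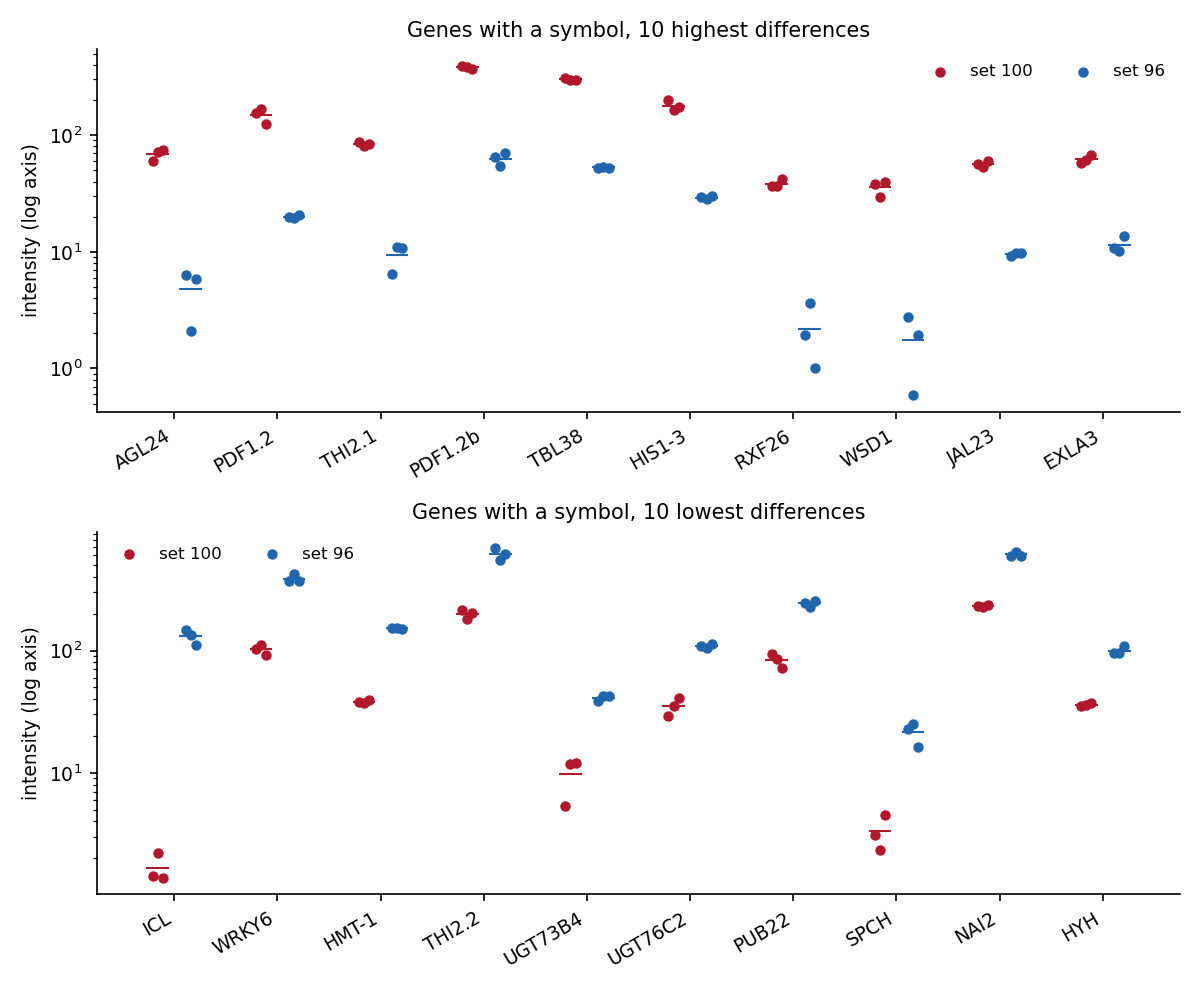
Intensity of each array (log axis) for the 10 highest and 10 lowest differences among genes with a symbol, set 100 in red and set 96 in blue, with bars at the set means. In every gene drawn the 3 arrays of one set lie above the 3 of the other, which the naming rule required.

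SPCH, the transcription factor that starts the stomatal lineage, averaged 3.31 in set 100 and 21.4 in set 96. Both means were below the filter on low values, where order is not reliable, so its call is to be read with care. It read 3.08, 2.35 and 4.5 in set 100, against 22.9, 25.1 and 16.2 in set 96, a difference of -1.45 ± 0.23 on the log2 scale (SE, adjusted p = 5.8e-05). FMA, a later factor of that lineage that sets guard cell fate, averaged 79 in set 100 and 65.3 in set 96 and was not called, at 0.26 (adjusted p = 0.052). STOMAGEN, a peptide made by the mesophyll that promotes stomata, rose by 0.28 (adjusted p = 0.044), a call lost with any 1 of the 6 arrays left out (adjusted p = 0.054 to 0.18). PRL, a subunit of the complex that licenses DNA replication, fell by 0.41 (adjusted p = 0.019), with adjusted p up to 0.095 when 1 array was left out. Of 6 core histone genes 3 fell and none rose, against 12.8% and 17.7% of all probe sets. The falls were led by HTB11 at -0.54 (adjusted p = 0.00016) and HTB2 at -0.47 (adjusted p = 0.0045). The mildest of the 3, HTB4, lost its call without array 96 A, 96 C, 100 A, 100 B or 100 C (adjusted p = 0.051 to 0.12). With the sets compared alone its adjusted p was 0.052. The 2 aurora kinases tested were not called, at -0.05 and -0.30.

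All 6 tested genes of the ER body list fell with all arrays, against 12.8% of all probe sets, with a median of -0.93. At a pseudocount 4 times lower than the 7 used here, 3 of the 6 were called, and without ATGE_100 A and ATGE_101 A 4 were. NAI2, which the ER body needs to form, read 232, 226 and 235 in set 100, against 599, 639 and 599 in set 96, and fell by 1.38 (adjusted p = 1.8e-08). NAI1, the transcription factor that drives these genes, averaged 33.6 in set 100 and 69.7 in set 96 (-0.91, adjusted p = 0.00017). PYK10, the beta-glucosidase stored there, read 1147, 1187 and 1300.1 in set 100, against 2296, 2317 and 2213 in set 96. Its difference was -0.91 (adjusted p = 0.015), with an adjusted p up to 0.051 under the alternatives. The jacalin-related lectins JAL34 and JAL33, which bind PYK10 aggregates, differed by -0.96 (adjusted p = 2.3e-05) and -1.06 (adjusted p = 0.0044), and JAL33 had adjusted p = 0.062 at that lower pseudocount. The lectin JAL22 was the sixth, at -0.44 (adjusted p = 0.046). It lost its call with any 1 of the 6 arrays left out (adjusted p = 0.079 to 0.1), so 5 of the 6 genes were called in each of those fits. Another lectin of the family, JAL23, went the other way and read 57.1, 53.5 and 59.8 in set 100, against 9.28, 9.82 and 9.77 in set 96, a difference of 1.94 (adjusted p = 4.8e-06).

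Of 4 jasmonate-linked defence peptides 3 rose and 1 fell, with a median of 2.48, against 17.7% higher and 12.8% lower among all probe sets. PDF1.2, the plant defensin used as a marker of jasmonate and ethylene signalling, read 155, 167 and 126 in set 100, against 19.8, 19.3 and 20.5 in set 96. It differed by 2.53 ± 0.38 on the log2 scale (SE, adjusted p = 3.5e-05). Its close copy PDF1.2b read 394, 382 and 369 in set 100, against 65, 54.4 and 69.8 in set 96, a difference of 2.48 (adjusted p = 0.00044), and cross-hybridisation between the copies was not tested. The thionin THI2.1 read 86.9, 80.9 and 83.9 in set 100, against 6.39, 11.1 and 10.8 in set 96, a difference of 2.48 ± 0.29 on the log2 scale (SE, adjusted p = 1.1e-06). A relative, THI2.2, was opposite, with 214, 180.0 and 203 in set 100, against 689, 549.5 and 616 in set 96, a fall of 1.6 (adjusted p = 0.0021). The defensin PDF1.4 also fell, by 0.58 (adjusted p = 0.012; 0.052 without array 96 A).

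Among genes of the response to cold, drought and abscisic acid, 5 of 6 rose, against 17.7% of all probe sets, with a median of 1.72. HIS1-3, a linker histone variant induced by drought, read 199, 165 and 174 in set 100, against 29.3, 28.5 and 29.8 in set 96, a difference of 2.36 (adjusted p = 4.6e-09). WSD1, a wax ester synthase, was close to the floor in set 96, with 38.3, 29.8 and 40 in set 100, against 2.74, 0.589 and 1.94 in set 96 (2.30, adjusted p = 1e-08). COR15B and COR15A encode chloroplast proteins that protect membranes in the cold. COR15B read 153, 165 and 135 in set 100, against 38.8, 38 and 37.8 in set 96, a difference of 1.80 (adjusted p = 2.4e-06), and COR15A averaged 51.4 in set 100 and 11.7 in set 96, a difference of 1.64 (adjusted p = 2.2e-07). The dehydrin COR47 rose by 0.49 (adjusted p = 0.0016), while the dehydrin LTI30 averaged 29.9 in set 100 and 48.1 in set 96 and was not called (-0.58, adjusted p = 0.13).

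Of 9 genes of the list of touch, wounding and rapid stress responses, 5 rose and 2 fell, against 17.7% and 12.8% of all probe sets, with a median of 0.78. Under the stricter filter 3 of 7 rose, with a median of 0.23. STZ, a zinc finger repressor induced by many stresses, read 1245, 1517 and 1513 in set 100, against 462, 453 and 429 in set 96, a difference of 1.65 (adjusted p = 1.1e-06). EXO, a gene of cell expansion that responds to brassinosteroids, read 2115, 2795 and 2653 in set 100, against 1074, 933 and 1032 in set 96, a difference of 1.30 (adjusted p = 5.4e-06). Of the calmodulin-like calcium sensors, CML38 read 311, 373 and 345 in set 100, against 122, 125 and 133 in set 96, a difference of 1.39 (adjusted p = 0.0016), and CML41 differed by 1.25 (adjusted p = 0.00027). CML37 rose by 1.28 (adjusted p = 0.012). CML42 was lower, with 211, 261 and 239.9 in set 100, against 335, 392 and 341 in set 96, a fall of 0.57 (adjusted p = 0.00042).

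Of 8 ubiquitin ligases of the plant U-box family 3 rose and 2 fell, against 17.7% and 12.8% of all probe sets. These counts include PUB19, which rose by 0.81 (adjusted p = 0.039), and PUB49, which fell by 0.39 (adjusted p = 0.044). Both lost their calls without array 96 B, 96 C, 100 A, 100 B or 100 C (adjusted p up to 0.22 and 0.2). PUB22, which dampens immune signalling, read 93, 85.1 and 72.1 in set 100, against 247, 229 and 253 in set 96, a difference of -1.47 ± 0.20 on the log2 scale (SE, adjusted p = 9.6e-06). Its nearest relatives of that function, PUB23 and PUB24, were not called, at 0.23 and 0.04. PUB25 read 65.9, 61.7 and 64.8 in set 100, against 14.6, 22 and 19.7 in set 96, a difference of 1.47 (adjusted p = 5e-07), and PUB26 differed by 0.67 (adjusted p = 0.004). Both act in cold responses.

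Transcription factors of the WRKY family tested here either fell or were not called, 3 and 3 of 6, with 12.8% of all probe sets lower. WRKY6, a factor of senescence and phosphate responses, read 103, 112 and 91.5 in set 100, against 369.7, 421 and 373 in set 96, a difference of -1.86 ± 0.23 on the log2 scale (SE, adjusted p = 2.7e-06). WRKY47 and WRKY22 differed by -0.94 (adjusted p = 0.0005) and -0.58 (adjusted p = 0.00083). WRKY53, a regulator of leaf senescence, averaged 133 in set 100 and 99.4 in set 96 and was not called (0.40, adjusted p = 0.28). Of the 8 genes of the senescence list 1 rose and 3 fell, against 17.7% and 12.8% of all probe sets. Those that fell were WRKY6 and WRKY22, already counted in the WRKY family, and SAG29. The one that rose was GAMMA-VPE, a vacuolar processing protease, which read 848, 1030.3 and 989 in set 100, against 493, 523 and 491 in set 96, a difference of 0.92 (adjusted p = 5.3e-06). SAG29, a sugar exporter, read 18.2, 2.56 and 10.7 in set 100, against 29.8, 25.4 and 29.4 in set 96. Its fall of 1.11 (adjusted p = 0.049) did not keep a call without array 100 B, where adjusted p was 0.24.

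AGL24, a MADS-box promoter of flowering, read 59.8, 71.5 and 74.8 in set 100, against 6.36, 2.1 and 5.88 in set 96, a difference of 2.70 ± 0.13 on the log2 scale (SE, adjusted p = 2.9e-12), and the level in set 96 was below the filter on low values. SMZ, an AP2-type repressor of flowering, read 26.8, 23.2 and 20.2 in set 100, against 53.7, 63 and 62.7 in set 96 and fell by 1.14 (adjusted p = 5.2e-05). AGL42, a MADS-box gene of the floral pathway, and FD, the partner of the flowering signal FT, rose by 0.77 and 0.80 (adjusted p = 0.0096 and 0.029). AGL42 averaged 10.7 in set 100 and 3.57 in set 96, both below the filter on low values. FD averaged 24.3 in set 100 and 11.5 in set 96, the latter below it. FD lost its call without array 96 A, 100 A, 100 B or 100 C (adjusted p = 0.062 to 0.16). Without array 96 B the adjusted p of AGL42 was 0.064. Of 9 MADS-box genes tested 3 rose and 1 fell, against 17.7% and 12.8% of all probe sets. AGL65 was among those that rose, at 0.81 (adjusted p = 0.00047). HYH, a light-signalling factor of the bZIP class, read 35.4, 35.6 and 37 in set 100, against 96.3, 94.9 and 108 in set 96, a fall of 1.31 (adjusted p = 6.3e-05).

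Cellulases, expansins and xyloglucan endotransglucosylases were called higher more often than lower. As a base for these counts, 28.5% of 8292 genes taken with 1 probe set each were called, 1441 higher and 919 lower, with a median difference of 0.06. Cellulases of family GH9 rose in 5 of 7 genes (median 0.78). GH9B13 read 93, 84.1 and 82.9 in set 100, against 20.1, 21.2 and 20 in set 96, a difference of 1.77 (adjusted p = 0.00013), and GH9B8 differed by 1.09 (adjusted p = 5.6e-06). Of 13 expansins and expansin-like genes, which loosen wall polymers, 6 rose and 3 fell. EXLA3 read 57.9, 61.6 and 67.1 in set 100, against 10.8, 10.1 and 13.6 in set 96, a difference of 1.90 (adjusted p = 2.2e-08), and EXLA2 and EXPA8 differed by 1.32 (adjusted p = 2.3e-05) and 1.16 (adjusted p = 8.9e-05). EXPA16 read 10.2, 10.3 and 15.1 in set 100, against 29.3, 34.6 and 26.7 in set 96, a fall of 0.98 (adjusted p = 5.6e-05). EXPA9 fell by 0.70 (adjusted p = 0.0042). EXPA18, the third expansin that fell and the one tested root marker, averaged 7.68 in set 100 and 16.3 in set 96, -0.69 (adjusted p = 0.025). In each of 4 fits that left out a single array its adjusted p was 0.063 to 0.11. The 3 root marker probe sets summed to 14.7 to 19.4 in set 100 and 19.6 to 32.1 in set 96.

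Of 6 xyloglucan endotransglucosylase genes, which cut and rejoin wall xyloglucan, 4 rose with all arrays, against 17.7% of all probe sets. Without array 100 A, 2 of them rose. XTH33 read 62.3, 48.5 and 55.7 in set 100, against 15.8, 20.1 and 19.8 in set 96, a difference of 1.29 (adjusted p = 0.00055). XTH16 and XTH19 lost their calls without that array (adjusted p = 0.078 and 0.083). XTH16 also lost it without array 96 A (0.052), and XTH19 without array 96 B, 96 C or 100 C (0.08 to 0.096). CSLC04, a synthase of the xyloglucan backbone, read 752, 756 and 727 in set 100, against 344, 369 and 324 in set 96, a difference of 1.09 (adjusted p = 2.6e-09). Within the TBL family, which is linked to the acetylation state of wall polysaccharides, 3 of 16 genes rose and 1 fell, close to the shares of all genes. TBL38 read 307, 299 and 296 in set 100, against 52.5, 53.2 and 52.7 in set 96, a difference of 2.36 ± 0.11 on the log2 scale (SE, adjusted p = 1.1e-12). AT2G31110, which RefSeq lists as TBL40, read 232, 220.0 and 239.9 in set 100, against 71.1, 79.5 and 84.9 in set 96, a difference of 1.48 (adjusted p = 4.6e-09), and TBL36 differed by 1.07 (adjusted p = 0.012). A second probe set of AT2G31110 gave 1.25 (adjusted p = 6.3e-06).

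**Figure D2:**
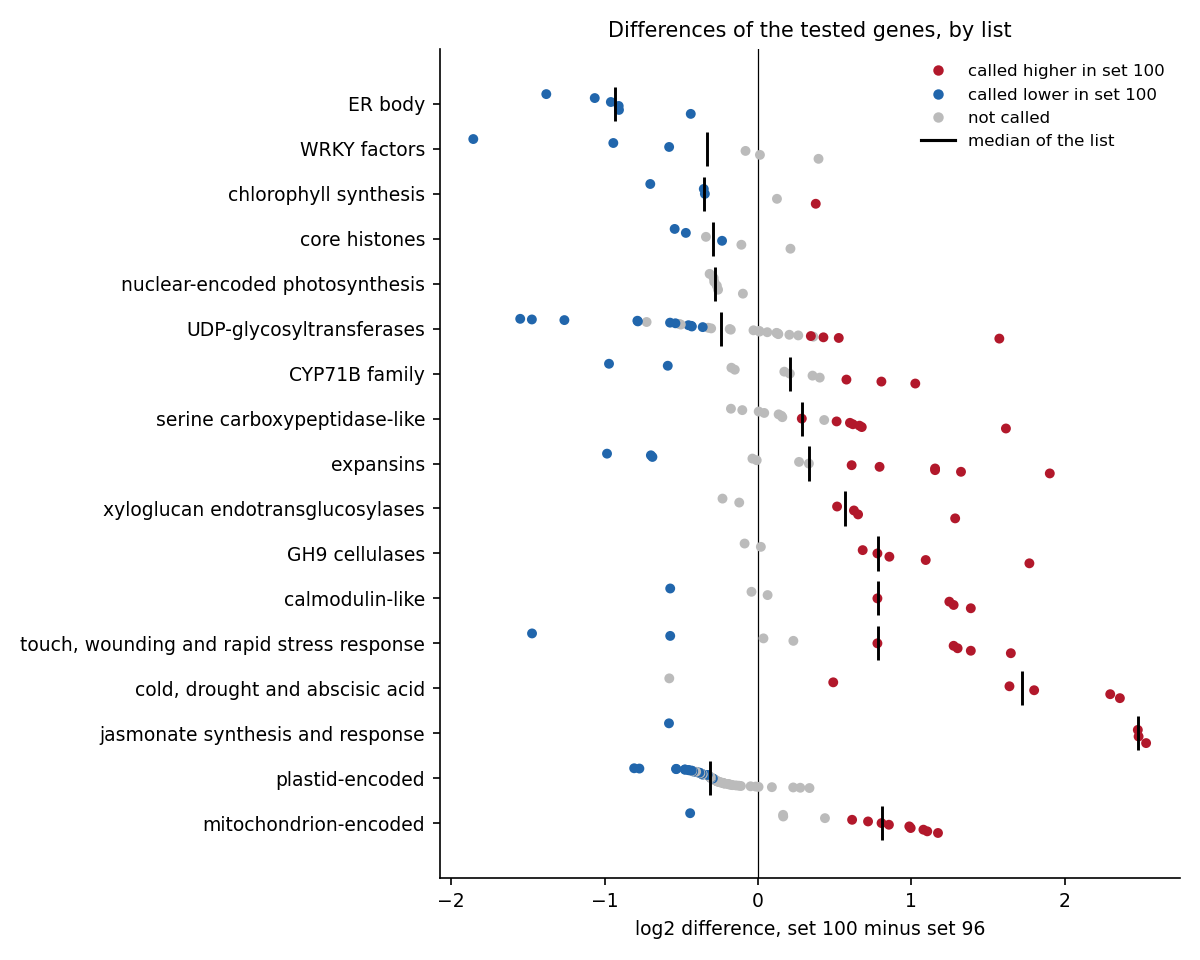
Log2 difference, set 100 minus set 96, of every tested gene in 17 gene lists, with 1 point a gene, red for genes called higher in set 100, blue for lower and grey for not called, and a bar at the list's median. The ER body points all lie at or left of -0.44, and those of the plastid-encoded genes lie mostly between 0 and -0.5.

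Enzymes of specialised metabolism moved in both directions. Of 32 UDP-glycosyltransferases 11 fell and 4 rose, against 12.8% and 17.7% of all probe sets, and 5 fell without array 96 B. The tandem pair UGT73B4 and UGT73B5, which act in responses to pathogens, both fell: UGT73B4 read 5.39, 11.9 and 12 in set 100, against 38.6, 42.4 and 42.5 in set 96, a difference of -1.55 (adjusted p = 9.5e-07), and UGT73B5 read 44.5, 54.5 and 50.4 in set 100, against 138, 139.7 and 111 in set 96, a difference of -1.26 (adjusted p = 0.00016). UGT76C2, which inactivates cytokinins, read 29, 35 and 40.8 in set 100, against 109.8, 104 and 113 in set 96, a difference of -1.47 (adjusted p = 0.00017). UGT85A5 rose, with 119.9, 119 and 96.6 in set 100, against 26.1, 32 and 41.5 in set 96, a difference of 1.57 (adjusted p = 5.6e-08). Of 15 serine carboxypeptidase-like genes 7 rose and none fell, against 17.7% and 12.8% of all probe sets. Among them scpl31 read 57.1, 59.3 and 71.2 in set 100, against 9.97, 18.1 and 20 in set 96, a difference of 1.62 (adjusted p = 5.5e-06). Of 13 beta-glucosidases 6 rose and 1, PYK10, fell, against 17.7% and 12.8% of all probe sets. BGLU28, which breaks down glucosinolates, read 60, 60.9 and 68.8 in set 100, against 22.1, 22.2 and 24.5 in set 96, a difference of 1.23 (adjusted p = 5.2e-07). Without array 100 A, 4 beta-glucosidases were called higher.

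Of 11 cytochrome P450 genes of the CYP71B family 3 rose and 2 fell, against 17.7% and 12.8% of all probe sets, and with so few genes no result is read from this. Some neighbours among them differed in direction, a pattern picked after their values were seen. CYP71B22 and CYP71B23 are next to each other in RefSeq's gene order. CYP71B22 read 127, 99.4 and 114 in set 100, against 46.3, 46.3 and 65.2 in set 96, a difference of 1.03 (adjusted p = 0.00015). CYP71B23 read 113, 126 and 125 in set 100, against 264, 249.7 and 221 in set 96, a fall of 0.97 (adjusted p = 0.00068). The adjacent CYP71B28 and CYP71B29 likewise differed by 0.81 (adjusted p = 2.5e-05) and -0.59 (adjusted p = 0.0052). Of CYP71B26, CYP71B34, CYP71B35 and CYP71B36, with consecutive locus IDs, the first 3 had differences of 0.21 to 0.58 and CYP71B36 had -0.15. In the methionine and sulphur pathways, BCAT4, which starts the lengthening of methionine for glucosinolates, read 732, 908 and 827 in set 100, against 448, 483 and 378 in set 96, a difference of 0.91 (adjusted p = 5.5e-05). HMT-1, a homocysteine methyltransferase that makes methionine, read 38.1, 37.3 and 39.2 in set 100, against 153, 153 and 149.5 in set 96, a difference of -1.81 ± 0.13 on the log2 scale (SE, adjusted p = 9.5e-10). Of 4 glucosinolate genes 1 rose and 3 fell, with 12.8% of all probe sets lower. Leaving out 1 array left 0 to 2 that fell, none of them without array 100 B. UGT74B1 and GSTU20 differed by -0.45 (adjusted p = 0.03) and -0.36 (adjusted p = 0.022), and each lost its call when 1 of several arrays was left out (adjusted p up to 0.092 and 0.1).

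None of 6 nuclear genes of light harvesting and photosystems was called with all arrays, with differences of -0.32 to -0.10. Without array 100 B, 4 of the 6 were called lower, with a median of -0.38. Their 6 intensities summed to 10860, 15730 and 13940 in set 100 and 16520, 16500 and 15650 in set 96. Array 100 A was the lowest of the 6 arrays there. Chlorophyll synthesis had 3 genes lower and 1 higher of 5, against 12.8% and 17.7% of all probe sets. CHLI2, a subunit of magnesium chelatase, read 111, 98.9 and 99 in set 100, against 188, 172 and 156 in set 96, a difference of -0.70 (adjusted p = 3e-05), and GSA1, which makes the precursor aminolevulinate, differed by -0.35 (adjusted p = 0.006). PORB, a light-dependent reductase of that pathway, was the one that rose (0.38, adjusted p = 0.034; 0.11 without array 100 A). SBE2.2, a starch branching enzyme, read 340.5, 268 and 307 in set 100, against 467, 471 and 475 in set 96, a difference of -0.62 (adjusted p = 1.3e-05). PWD, which phosphorylates starch for its breakdown, rose by 0.41 (adjusted p = 0.0021).

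Transcripts of the plastid genome were lower in 19 of 69 genes with all arrays, against 12.8% of all probe sets. They were lower in 4 without array 100 A and in 10 after quantile normalization, and higher in none. Without array 100 B 42 were lower, and without array 96 B 6 were. Among the 35 that encode photosynthesis proteins 11 fell, and 2 did so without array 100 A. Those 2 were psbB, a core antenna protein of photosystem II, and ycf3, an assembly factor of photosystem I. For psbB the arrays read 532, 637 and 594 in set 100, against 936, 1285 and 909.9 in set 96, a difference of -0.81 (adjusted p = 0.0013) and adjusted p = 0.0092 without array 100 A. For ycf3 they read 383, 383 and 404 in set 100, against 779, 617 and 629.7 in set 96, a difference of -0.77 (adjusted p = 3.2e-06) and adjusted p = 3.6e-05 without it. The difference ran with intensity over all probe sets tested: its median was -0.1 among the 3094 brightest, of which 26.2% were lower, and 0.14 among the 3095 dimmest, of which 5.49% were lower. After quantile normalization these medians were -0.04 and 0.001. The part of this trend in the plastid result was not tested.

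Mitochondrial transcripts ran the other way. Of 13 genes of the mitochondrial genome 9 rose and 1 fell, against 17.7% and 12.8% of all probe sets, with a median of 0.81, and 9 were also higher without array 100 A and after quantile normalization. For complex I, the entry point of respiratory electrons, 10 of 11 nad probe sets, which come from 6 genes, were higher in each of these settings. The genes nad1 and nad5 had several probe sets each. The probe set of nad4L read 70.9, 72.8 and 64.9 in set 100, against 26.7, 31.2 and 29.8 in set 96, a difference of 1.08 ± 0.10 on the log2 scale (SE, adjusted p = 3e-08). That of nad9 read 82.1, 80.5 and 73.9 in set 100, against 36.2, 39.1 and 32.9 in set 96. The exception, nad4, read 355, 377 and 307 in set 100 and 266, 302 and 360 in set 96, and these overlapped. Both cox genes of complex IV rose, cox2 by 0.81 and cox1 by 0.61 (adjusted p = 6e-04 and 0.00052). Of the genes for cytochrome c maturation, ccb452 read 298, 259.7 and 267 in set 100, against 125, 103 and 127 in set 96. It differed by 1.17 (adjusted p = 3.4e-08). The gene ccb382 differed by -0.44 (adjusted p = 0.044), a call lost with any 1 of the 6 arrays left out (adjusted p = 0.068 to 0.13). The priming and the poly(A) state of organelle RNA are not given in the sources used here.

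**Figure D3:**
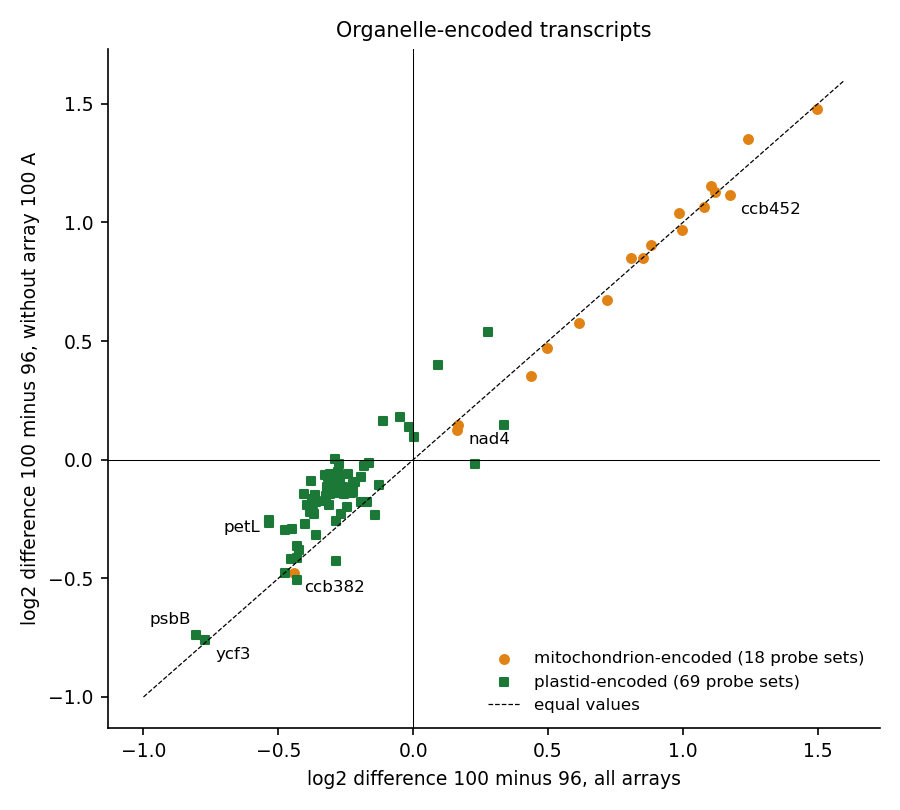
Log2 difference, set 100 minus set 96, of each organelle-encoded probe set with all arrays (horizontal axis) and without array 100 A (vertical axis), for 18 mitochondrial (circles) and 69 plastid probe sets (squares). The mitochondrial points stay near the line of equal values, while most plastid points lie above it.

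Of 6 genes of the list of sugar starvation and darkness, which include genes of leucine breakdown, 1 rose and 2 fell. Of all probe sets 17.7% were higher and 12.8% lower. MCCA, a subunit of methylcrotonyl-CoA carboxylase, read 584, 597 and 582 in set 100, against 784, 763 and 815 in set 96, a fall of 0.42 (adjusted p = 0.0031). IVD, isovaleryl-CoA dehydrogenase of the same pathway, rose by 0.32 (adjusted p = 0.028; 0.07 without array 100 A). ETFQO, which passes the electrons on to the respiratory chain, fell by 0.24 (adjusted p = 0.034). It lost its call without array 96 B, 96 C, 100 B or 100 C (adjusted p = 0.074 to 0.13). MCCB, the other carboxylase subunit, averaged 622 in set 100 and 601 in set 96 and was not called (0.05, adjusted p = 0.81).

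Genes with a locus ID alone had large differences too, and the annotation used here gives them no role. AT2G20870 read 435, 389.9 and 418 in set 100, against 27.8, 22.4 and 25.2 in set 96, a difference of 3.71 (adjusted p = 1.9e-08). AT1G33760 read 78.8, 93 and 90.4 in set 100, against 1.57, 3 and 1.54 in set 96, a difference of 3.38 (adjusted p = 5.7e-14). The neighbours AT4G27654 and AT4G27652 both rose. AT4G27654 read 281, 304 and 276 in set 100, against 20.1, 18.7 and 17.9 in set 96, a difference of 3.50 (adjusted p = 7.6e-07), and AT4G27652 read 365, 319.5 and 331 in set 100, against 29.7, 30.9 and 45.5 in set 96, a difference of 3.04 (adjusted p = 2.2e-06). The other 4 of the 8 highest, AT5G22430, AT4G21650, AT4G19430 and AT5G39520, had differences of 2.97 to 3.06. AT2G43620 fell most, with 75.9, 56.8 and 67.5 in set 100, against 983, 940.5 and 917 in set 96, a difference of -3.70 ± 0.12 on the log2 scale (SE, adjusted p = 1.1e-14). AT1G49000 read 4.65, 3.05 and 1.7 in set 100, against 76.1, 81.7 and 74.5 in set 96, a difference of -3.07 (adjusted p = 5.7e-11). AT1G02360 read 28.5, 48.3 and 32.3 in set 100, against 343, 316 and 293 in set 96, a difference of -2.93 (adjusted p = 2.1e-09). The other 5 of the 8 lowest, AT2G36690, AT3G44970, AT3G46280, AT4G12490 and AT5G44910, had differences of -2.94 to -2.63.

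The same comparison can be made with 5% sucrose, between ATGE_101 and ATGE_97, which share no array with sets 100 and 96. Array A was low in BioB and in its highest intensity in both set 100 and ATGE_101. What such shared array traits add to both differences was not tested. There 5693 probe sets were called (36.8%), 2955 higher and 2738 lower in ATGE_101. Of the 2745 probe sets higher in set 100, 1463 (53.3%) were also higher in ATGE_101, and 82 were lower. Of the 1973 lower ones, 1104 (56%) were also lower in ATGE_101, and 78 were higher. Across the 15471 probe sets the differences of both pairs correlated at r = 0.67 and rho = 0.54, a description over probe sets that share arrays within each pair. AGL24 differed by 2.74 (adjusted p = 2.1e-12) between ATGE_101 and ATGE_97, SPCH by -2.08 (adjusted p = 5.4e-07) and AT2G20870 by 4.72 (adjusted p = 4.4e-10). Of the 515 probe sets at least 2-fold higher in set 100, 439 were called higher in ATGE_101, and of the 237 lower ones 166 were called lower.

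Without and with sucrose the differences themselves differed for 1860 probe sets (12%), 1027 above and 833 below 0. ICL averaged 1.21 in ATGE_101 and 29.2 in ATGE_97, and the fall without sucrose exceeded that with sucrose, the first less the second being -1.86 on the log2 scale (adjusted p = 2.8e-07). WRKY6, HMT-1 and UGT73B4 fell in set 100 and were not called in ATGE_101. WRKY6 averaged 82.6 ± 8.27 in ATGE_101 and 108 ± 16.5 in ATGE_97 (SD, n = 3), a difference of -0.35 (adjusted p = 0.25). HMT-1 and UGT73B4 differed by -0.25 (adjusted p = 0.14) and 0.38 (adjusted p = 0.095). For these 3 genes the test of the difference between pairs gave adjusted p = 0.0046, 1.2e-05 and 4.9e-05. MCCA went in opposite directions: it was higher in ATGE_101, 338 ± 24.7 in ATGE_101 and 190.2 ± 8.17 in ATGE_97 (SD, n = 3), 0.80 (adjusted p = 2.5e-06). EXPA8, higher in set 100, averaged 274 ± 3.9 in ATGE_101 and 302 ± 25.6 in ATGE_97 (SD, n = 3), -0.13 (adjusted p = 0.63).

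**Figure D4:**
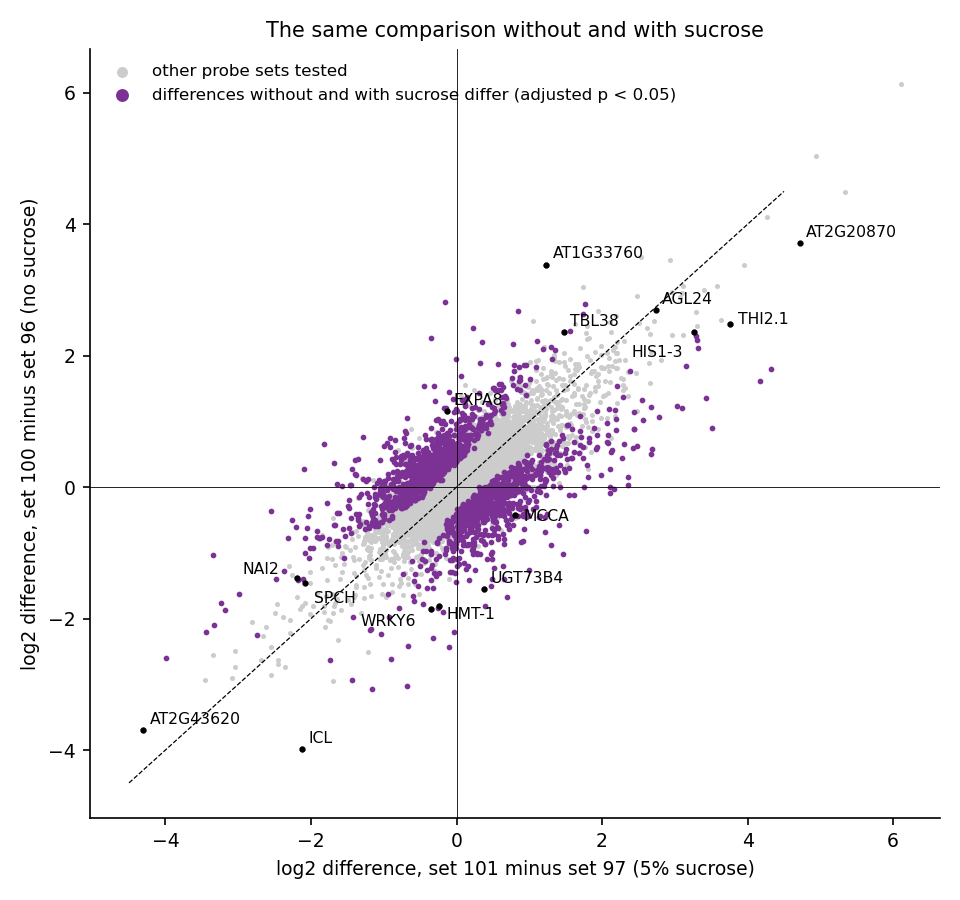
Log2 difference of set 100 minus set 96 without sucrose (vertical axis) against ATGE_101 minus ATGE_97 with 5% sucrose (horizontal axis), 1 point for each of 15471 probe sets. The dashed line marks equal differences, violet points are the 1860 probe sets whose differences themselves differed, and ICL lies far below the line.

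On soil, whole plants were compared with the seedlings of set 7, again with no shared array. In the whole plants 5145 probe sets were higher (33.3%) and 4935 lower (31.9%). Of those higher in set 100, 1426 (51.9%) were also higher in whole plants and 462 (16.8%) lower. Of those lower in set 100, 867 (43.9%) were also lower in whole plants and 589 (29.9%) higher. Across probe sets r was 0.25 and rho 0.22. AGL24 averaged 74.3, 79.6 and 64.6 in sets 22, 23 and 24, against 18.2 in set 7. SPCH averaged 13.4, 14.8 and 11.6 in the whole plants and 55.7 in set 7. The values of the whole plants and of set 100 lie under the filter, where no order can be read. NAI2 averaged 23.5, 21.5 and 15.3 in the whole plants and 146 in set 7.

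Some of the leading genes had no counterpart on soil. ICL averaged 0.78 to 1.33 in all 4 soil sets, at the level of set 100. WRKY6 averaged 23.1, 9.21 and 15.9 in the whole plants and 9.91 in set 7, all below both medium sets. AT2G43620 averaged 27.9, 26.5 and 17.7 in the whole plants and 14.5 in set 7. The mean of set 96 was above every soil set for 198 of the 237 probe sets at least 2-fold lower in set 100 (83.5%), and for 25.2% of all tested. The mean of set 100 was also above every soil set for 134 of these 237 (56.5%), and for 30.6% of all tested. Choosing probe sets lower in set 100 favours high values in set 96, and medium and temperature differ between these sets too.

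**Figure D5:**
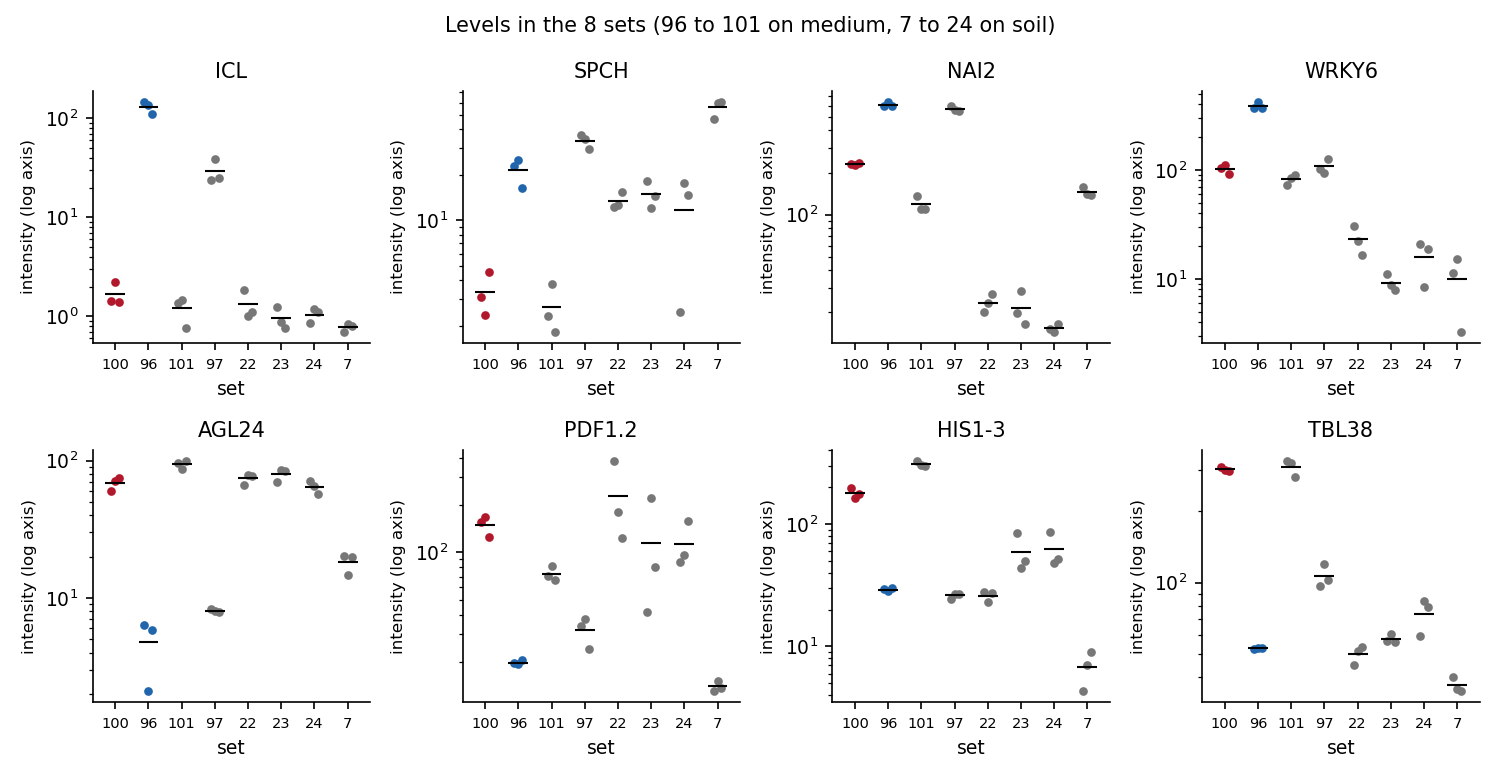
Intensity of each array (points, log axis) and set mean (bars) for 8 genes in the 8 sets, with set 100 in red, set 96 in blue and the other sets in grey. ICL is high in set 96 and ATGE_97 only, AGL24 is low in those sets and in set 7, and TBL38 is highest in set 100 and ATGE_101.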

How the data were processed

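Per the labels, biotin-labelled RNA of seedling green parts or whole plants was hybridised to 24 one-colour arrays, 3 for each of 8 sets. The authors deposited linear intensity values, scaled, as the values show, so that the 2% trimmed mean of each array is 100. The submitters' processing notes name MAS5, with no version given in the sources used here. The table used here holds no detection calls, so low values have no reliable order.

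From these, log2(intensity + 7) was computed and limma 3.58.1 in R 4.3.3 (lmFit, eBayes, 8 set means, 16 residual and 4.83 prior degrees of freedom) was fitted to all 24 arrays. Control probe sets (64) were left out, and 15471 of 22746 others, with at least 3 arrays above 22.9 (the 40th percentile), were tested, two-sided, with Benjamini-Hochberg adjustment. Calls had adjusted p under 0.05. The fit was tested on simulated data.

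The members and lists were chosen with earlier results of these data known. The text names the 10 highest and 10 lowest called genes with a symbol, the 8 highest and 8 lowest with a locus ID only (arrays not overlapping), and up to 3 called members of each list plus up to 2 going the other way. Members that were not called, and others added beside them, were chosen after their values were seen. Names come from the platform annotation: 13513 probe sets name 1 gene (1580 with a symbol, 11933 with a locus ID only), 503 several and 8730 none. Of 604 list loci, 105 were named on a probe set in this annotation. The other loci were not analysed here. Aliases and neighbours come from RefSeq's TAIR10.1 table. Promoter motifs were not analysed here, and no sequence is printed.

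Alternatives covered the pseudocount (1.75, 28), the filter, quantile normalization, a common 75th percentile, the sets compared alone, a trended and robust fit, the replicate letter as a block, and each array left out. ATGE_100 A and ATGE_101 A were also left out together, and the sucrose and soil counts were given the same alternatives, choices made after seeing the data.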

Additional observations from a re-analysis of the deposited data

Results flagged for a closer look

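For 28 of the 123 genes named by rule, the difference of set 100 minus set 96 differed from that of ATGE_101 minus ATGE_97 by limma's test of the difference itself (adjusted p under 0.05). Most of these genes were named for an extreme or called difference in the first pair, which favours such a result, so their count is not comparable with the 12% of all probe sets. Values are the first difference less the second, on the log2 scale. Values above 0 were found for AT1G33760 (2.15), EXPA8 (1.28), CSLA03 (1.25), GSTU27 (1.04), GH9B8 (1), UGT85A5 (0.99), CYP71B22 (0.9), TBL38 (0.89), NAI2 (0.82), STOMAGEN (0.74), SCPL34 (0.74), CSLC04 (0.69) and AT2G43620 (0.61). GSTU27, CSLA03 and STOMAGEN were higher in set 100 and lower in ATGE_101. The call of CSLA03 in set 100 was lost without array 96 B, 96 C, 100 A or 100 C (adjusted p = 0.061 to 0.07), and that of STOMAGEN with any 1 array of both sets left out (0.054 to 0.18). Values below 0 were found for UGT73B4 (-1.93), AT1G49000 (-1.9), ICL (-1.86), HMT-1 (-1.57), UGT73B5 (-1.52), WRKY6 (-1.51), AT1G02360 (-1.49), THI2.1 (-1.28), MCCA (-1.22), psbB (-1.14), WSD1 (-0.99), HIS1-3 (-0.9), IVD (-0.81), ycf3 (-0.54) and ETFQO (-0.53). MCCA and ETFQO were lower in set 100 and higher in ATGE_101, ETFQO with adjusted p up to 0.13 in set 100 when 1 array was left out.

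Of the 28, 6 lost this call under at least 1 alternative. The highest adjusted p was 0.099 for THI2.1, 0.079 for AT2G43620, 0.067 for HIS1-3, 0.089 for CYP71B22, 0.18 for WSD1 and 0.051 for SCPL34.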

How the results depend on the processing

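The counts for set 100 against set 96 ran from 2147 to 3156 higher and from 1559 to 2473 lower over 15 alternatives, against 2745 and 1973. Leaving out 1 array gave 2147 to 2404 higher and 1559 to 1672 lower. Quantile normalization gave 2164 higher and 2270 lower, and a common 75th percentile 2310 and 2473, so the share of calls that were higher was 48.8% and 48.3% against 58.2%. For the difference between the pairs, the fit on the sets compared alone called 1636 above and 1446 below 0, and the fit without ATGE_100 A and ATGE_101 A called 628 and 472, against 1027 and 833; leaving out 1 array gave 725 to 911 and 581 to 658. Leaving out 1 array gave 2418 to 2597 higher and 2274 to 2440 lower for ATGE_101 against ATGE_97, and 4698 to 5176 higher and 4431 to 5046 lower for the soil sets. The letters did not pair the arrays of sets 100 and 96: their same-letter deviations correlated at -0.065, 0.053 and -0.02. The other sets were not checked in this way, and array A had a low BioB control in both set 100 and ATGE_101. With the letter as a replicate block the counts were 2736 higher and 1964 lower, and 1003 and 790 for the difference between the pairs. Of the 123 genes named by rule, 94 kept direction and call under every alternative, 29 lost the call under at least 1, and none changed direction. Dim genes, such as SPCH and ICL in set 100, are limited by background, and the number of arrays limits the rest.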

Other observations

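Genes of lists too short for the naming rule are given here as values, chosen after they were seen. TCP15, a growth-regulating transcription factor, read 103.7, 104.9 and 108.9 in set 100, against 37.4, 45.7 and 46.5 in set 96, a difference of 1.17 (adjusted p = 5.1e-08). PHV, a homeodomain factor of the upper leaf side, read 87.0, 113.6 and 104.3 in set 100, against 66.3, 59.9 and 61.0 in set 96, a difference of 0.64 (adjusted p = 0.001). MGL, which breaks down methionine, read 205, 200.5 and 205.2 in set 100, against 95.7, 86.4 and 87.5 in set 96, a difference of 1.12 (adjusted p = 4.1e-07). AT1G47400, from the list of iron uptake and storage, read 15.3, 12.3 and 9.39 in set 100, against 57.2, 58.7 and 61.1 in set 96, a difference of -1.78 (adjusted p = 1.2e-05). SBPASE of the Calvin cycle fell by 0.37 (adjusted p = 0.011), and PRK of the same cycle was not called, at -0.17.

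The probe set with the largest difference has no gene name in the annotation used here. The highest difference was of a probe set that read 540.3, 549 and 599 in set 100, against 0.713, 1.11 and 1.56 in set 96, 6.13 ± 0.54 (SE, adjusted p = 2.5e-08), beside 6.11 for ATGE_101 minus ATGE_97. The lowest among the unnamed ones read 5.01, 10.5 and 7.14 in set 100, against 109.9, 109.1 and 111.9 in set 96, a difference of -3.03 beside -0.69 with sucrose. Of 6767 tested probe sets without a gene name, 251 were at least 2-fold higher and 104 at least 2-fold lower. Of all 15471 tested the counts were 515 and 237.

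Some genes next to each other among those measured were called in the same direction, in 10 runs of 4 or 5 genes. Of 8292 genes with 1 probe set each, 1441 were called higher and 919 lower. Whether the runs exceed what these shares give was not tested, and no result is read from them. The runs given here were picked after their values were seen. AT1G67860, AT1G67865, AT1G67870 and AT1G67880 differed by 1.12, 2.53, 0.53 and 0.93, and AT1G72890, AT1G72900, AT1G72920 and AT1G72940 by 0.9, 1.22, 1.67 and 0.75. Cross-hybridisation between such neighbours was not tested.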
